A study of Mus musculus with 8 samples.

Results

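The NF-κB system was described through 10 of the 23302 genes in the deposited table. They are the 5 Rel family subunits Nfkb1, Nfkb2, Rela, Relb and Rel, the 3 classical inhibitors Nfkbia, Nfkbib and Nfkbie, the nuclear inhibitor-like gene Nfkbiz, and the feedback gene Tnfaip3, which encodes the ubiquitin-editing protein A20. The genes were chosen by name, but with earlier results of these data known. All 10 were found in the table, and all 10 had a mean of at least 10 normalized counts over the 8 libraries, so that none was lost to the filter on low values. RNA of splenic naive B cells from C57BL/6 mice had been sequenced in 4 groups of 2 libraries. The groups were BEBi3-/- mice with a pancreatic tumor, BEBi3-/- mice without one, WT mice with a tumor and WT mice without one. BEBi3-/- is the submitters' name for mice whose genotype is labelled B-EBi3-, and Ebi3 encodes a secreted subunit of heterodimeric cytokines. The groups without a tumor (nontumor) are those with the entry WT under tumor status, a reading on which every tumor comparison rests. The sources used here do not give how Ebi3 was lost or in which cells, the tumor model, or the age and sex of the mice. They also leave unsaid whether 1 animal or several stand behind the 2 libraries of each group.

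NF-κB is a family of transcription factors that act as dimers of Rel family proteins. In resting cells most dimers are held in the cytoplasm by IκB proteins, until the IKK kinase complex marks the IκB for degradation and the dimer enters the nucleus. In B cells the classical arm is switched on by the antigen receptor, by Toll-like receptors and by CD40, and it releases dimers that hold Rela or Rel. The alternative arm, fed by the BAFF receptor and held back by TRAF3, acts through the kinase NIK and the processing of the Nfkb2 protein, and releases dimers that hold Relb. Nfkbia, Nfkbie, Nfkb2, Relb, Rel and Tnfaip3 are themselves textbook targets of NF-κB.

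Recovered depth was 21291892 to 28297319 reads per library. Ebi3 had 8.70 and 10.999 normalized counts in the BEBi3-/- tumor libraries, 12.8 and 11.5 in BEBi3-/- nontumor, 200.9 and 164 in WT tumor, and 8.94 and 10.97 in WT nontumor. Its level thus separated the genotypes in tumor mice and did not in nontumor mice. The WT tumor libraries stood apart in their titles, which begin with IV where all others begin with OT, and in sex-linked genes. They had high Xist and 0 reads of the Y-linked genes Eif2s3y, Kdm5d and Uty, which were expressed in the other 6 libraries. In every comparison that uses the WT tumor group, tumor or genotype cannot be told apart from the sex-linked pattern and the title prefix. The BEBi3-/- tumor libraries differed from each other by a chi-square of 1.965 per gene, against 12.36 to 19.09 in the other groups. They differ by more than sampling noise and were counted as 2, and calls of the BEBi3-/- tumor effect are set beside those with the pair averaged as 1 library.

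The B cell markers Cd79a, Ms4a1 and Pax5 were expressed in every library. The 14 monocyte and macrophage markers summed to 0.357% of reads in BEBi3-/- tumor, 0.606% in BEBi3-/- nontumor, 0.0753% in WT tumor and 0.637% in WT nontumor, and the 13 erythroid markers to 0.336%, 1.53%, 0.118% and 0.776% in the same order of groups. None of these markers was at 0 in a whole group. The part of these other cells in the NF-κB results was not tested, and in bulk RNA fewer cells of a type and less RNA per cell cannot be told apart. Across 12867 genes the log2 difference between tumor and nontumor moved with transcript length, with a Spearman rho of 0.26 in BEBi3-/- and 0.453 in WT. The rho was -0.526 for the genotype effect in tumor mice, 0.284 for that in nontumor mice and -0.506 for the interaction. These genes share their libraries and are no replicates.

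The genes lie on 8 chromosomes of GRCm38. Rel is at chr11:23736847-23770970 and Nfkb1 at chr3:135584655-135691547, both on the minus strand. Nfkb2, at chr19:46304320-46312385, and Rela, at chr19:5637483-5648130, are on the plus strand, and Relb is at chr7:19606217-19629438 on the minus strand. Nfkbia is at chr12:55489410-55492647 and Nfkbib at chr7:28758251-28767512, both on the minus strand, and Nfkbie is at chr17:45555703-45563169 on the plus strand. Nfkbiz is at chr16:55811375-55838899 and Tnfaip3 at chr10:19000910-19015657, both on the minus strand. Exons of Nfkb2 overlap those of Psd, and exons of Nfkbib overlap those of Sirt2 and Ccer2, each on the opposite strand. The library kit keeps the strand, but whether quantification used it is not given in the sources used here, so the levels of Nfkb2 and Nfkbib are less certain than the others.

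Promoter windows of 250 bases before a transcription start were taken from RefSeq on GRCm38.p6 for 7 of the 10 genes. Each was searched on both strands for the NF-κB consensus, the κB motif of 10 bases. These genes have 10 windows, as some have several starts. A match was found in 7 of the 10 windows, where 7.25% of all 32851 windows held one. By gene a match was found for 5 of 7, and some windows of Nfkb2 overlap each other. In windows of Nfkb2 250 and 234 of the 250 bases lie in the gene's own exons, and in a matched window of Tnfaip3 110 do. The matches lie in windows of Rel, Nfkb2, Nfkbia, Nfkbie and Tnfaip3, and there was none in those of Rela and Nfkbib. The windows of Rel, the subunit whose level differed most between the groups, and of Nfkbia and Nfkbie, target genes that encode inhibitors, are shown 5′ to 3′ with the match in capitals.
Rel: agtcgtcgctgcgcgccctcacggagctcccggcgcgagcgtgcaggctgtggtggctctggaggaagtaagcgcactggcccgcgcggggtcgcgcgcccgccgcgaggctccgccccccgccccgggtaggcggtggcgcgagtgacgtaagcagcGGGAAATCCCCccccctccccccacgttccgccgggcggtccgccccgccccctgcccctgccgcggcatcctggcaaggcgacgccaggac
Nfkbia: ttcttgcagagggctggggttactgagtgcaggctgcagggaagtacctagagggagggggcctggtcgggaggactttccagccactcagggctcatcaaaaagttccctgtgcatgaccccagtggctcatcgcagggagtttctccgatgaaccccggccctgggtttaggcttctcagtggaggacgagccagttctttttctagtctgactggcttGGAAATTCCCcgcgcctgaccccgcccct
Nfkbie: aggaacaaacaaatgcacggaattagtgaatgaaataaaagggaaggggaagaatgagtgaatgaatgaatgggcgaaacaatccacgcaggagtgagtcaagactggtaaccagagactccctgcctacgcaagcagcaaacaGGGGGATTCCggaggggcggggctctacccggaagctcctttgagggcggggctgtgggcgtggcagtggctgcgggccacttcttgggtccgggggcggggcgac
The Rel window is chr11:23770970-23771219 on the minus strand, and its match, which reads as the motif on both strands, lies 92 to 82 bases before the start. The Nfkbia window is chr12:55492648-55492897 on the minus strand with its match 29 to 20 bases before the start, and the Nfkbie window is chr17:45555450-45555699 on the plus strand with its match 106 to 97 bases before the start. The matched bases before a start of Tnfaip3 were GGGACACCCC and GGAAATCCCC, and those before the starts of Nfkb2 were GGGAATTCCCC, GGGGCTTTCC, GGAATGTCCC and GGGACTTTCC. A match describes these letters and shows no binding.

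Rel was far higher in WT tumor than in any other group, Nfkbiz was higher in both tumor groups than in their nontumor groups, and most of the other genes differed by less. Tests were made with limma on log2 of the normalized count plus 1 across all 13011 genes that passed the filter, and a gene is called where its adjusted p is under 0.05. In tumor against nontumor BEBi3-/- mice 2 of the 10 genes were called, Rel and Nfkbiz, both higher and 0 lower, where 14.1% of all genes were higher and 18.5% lower. In tumor against nontumor WT mice 4 genes were higher (Rel, Nfkbiz, Tnfaip3 and Nfkb1) and 3 lower (Nfkbib, Relb and Rela), where 39.6% of all genes were higher and 40.1% lower. In BEBi3-/- against WT tumor mice 3 genes were higher (Nfkbib, Relb and Rela) and 3 lower (Rel, Nfkb1 and Nfkb2), where 31.9% of all genes were higher and 28.6% lower. In the interaction 2 genes were positive (Nfkbib and Relb) and 2 negative (Rel and Nfkb1), where 27.5% of all genes were positive and 25.4% negative. In BEBi3-/- against WT nontumor mice 0 members and 0% of all genes were called by limma, with 1049 genes at an unadjusted p under 0.05. Other tools gave 0 genes (edgeR) and 21 genes (DESeq2) in that comparison. The members' shares lie near those of all genes, so the counts say nothing particular about NF-κB, and the results are in the size and order of the single genes.

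**Figure D1:**
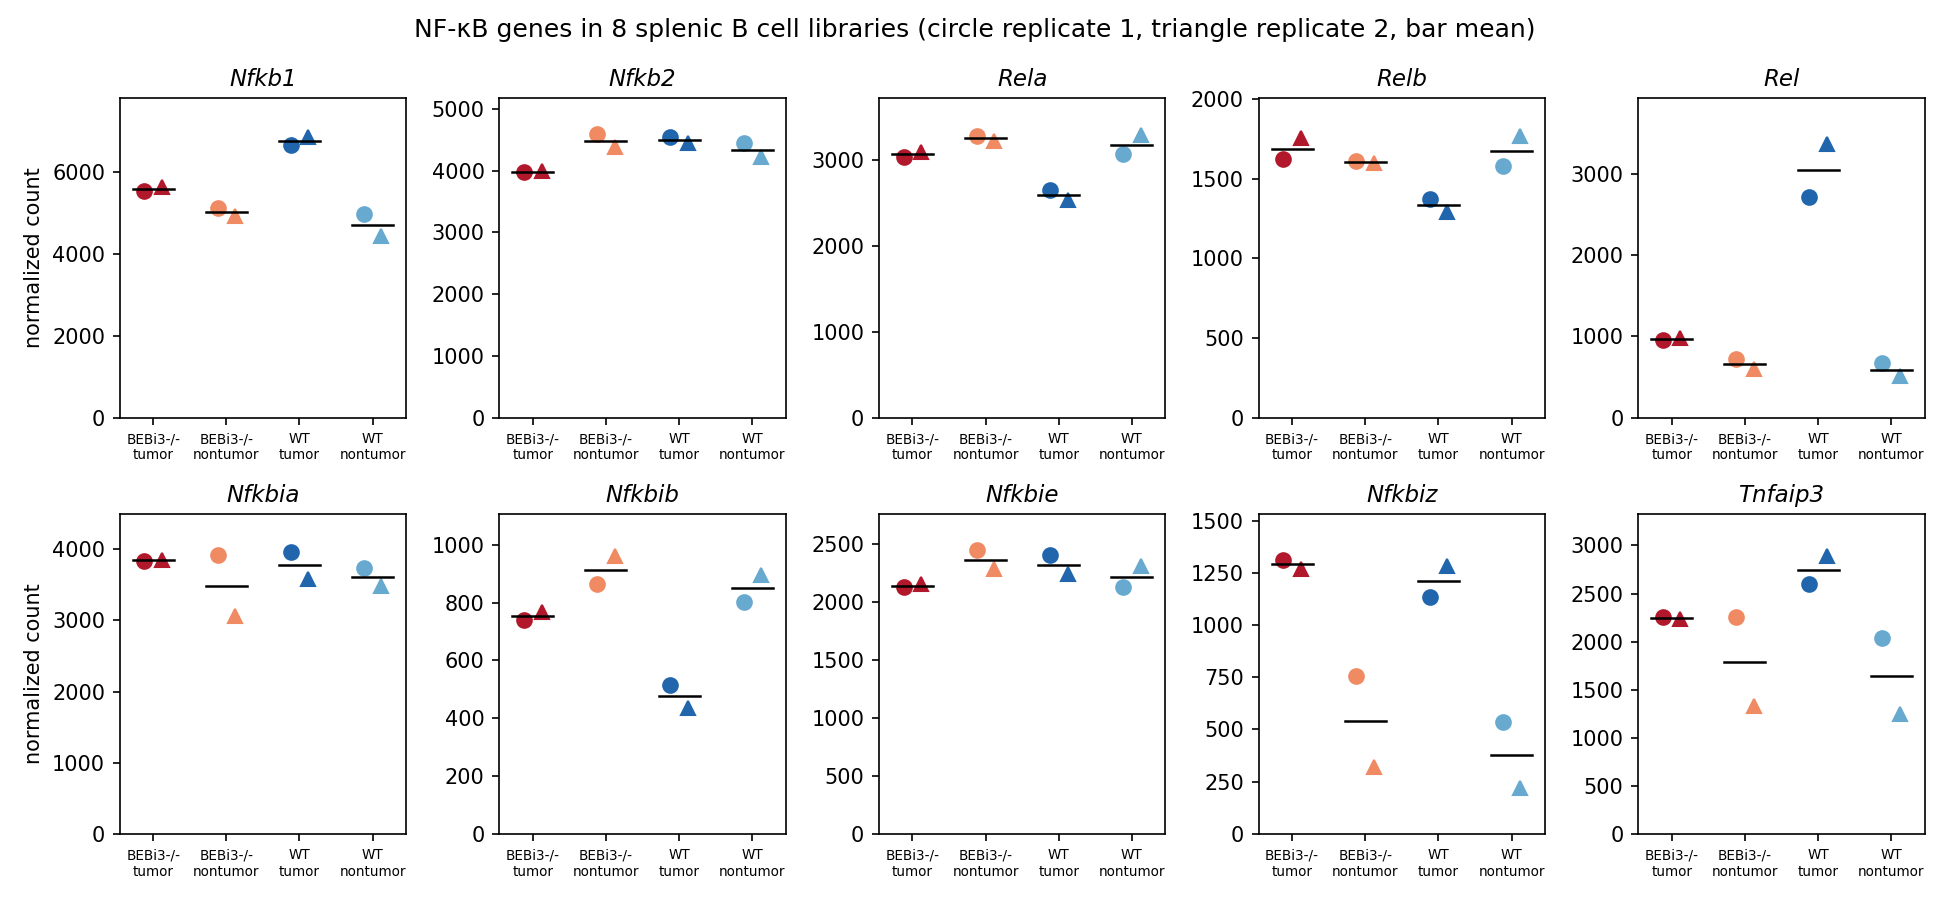
Normalized counts of the 10 NF-κB genes (vertical axes, from 0) in BEBi3-/- tumor, BEBi3-/- nontumor, WT tumor and WT nontumor mice, where points are libraries and bars are means of 2. Rel stands at 2716 and 3369 in WT tumor and at most at 984 in the other 6 libraries, and Nfkbiz is at 1133 or more in all 4 tumor libraries and at 755 or less in all 4 nontumor libraries.

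The direction of the small differences depended on how libraries were scaled. When each library was scaled to its total reads, an alternative chosen after seeing the data, the median of all genes moved to 0.17 (log2) in the BEBi3-/- tumor effect, 0.46 in the WT tumor effect, -0.19 in the genotype effect in tumor mice and -0.29 in the interaction. The members' calls then stood at 4 higher and 0 lower in the BEBi3-/- tumor effect, 8 higher and 1 lower in the WT tumor effect, and 1 higher and 4 lower in the genotype effect in tumor mice. Of all 13011 genes 3815 were then higher and 1358 lower, 7023 and 3525, and 3111 and 5084 in these comparisons. With the dependence of each library on the length and GC content of transcripts removed, the members' calls stood at 2 higher and 0 lower, 6 higher and 1 lower, and 1 higher and 4 lower. Of the 12867 genes of that fit 1847 were higher and 2449 lower, 4811 and 4784, and 3254 and 2538. The directions given below for Rel, Nfkb1, Nfkbiz, Tnfaip3 and Nfkbib in the tumor effects held under every scaling tried.

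Rel encodes c-Rel, the subunit most restricted to lymphoid cells. It had 951 and 984 normalized counts in BEBi3-/- tumor mice, 726 and 604 in BEBi3-/- nontumor, 2716 and 3369 in WT tumor, and 675 and 508 in WT nontumor. Both WT tumor libraries lay above all others, the BEBi3-/- tumor pair came next, and the nontumor groups overlapped. Tumor BEBi3-/- mice were 1.46-fold above nontumor BEBi3-/- mice (log2 difference 0.55 ± 0.157 SE, limma adjusted p = 0.031). Tumor WT mice were 5.16-fold above nontumor WT mice (2.37 ± 0.157, adjusted p = 2.71e-06). In tumor mice the log2 difference of BEBi3-/- from WT was -1.64 (adjusted p = 6.97e-05), and in nontumor mice it was 0.18 with a 95% interval of -0.18 to 0.53. The tumor effect in BEBi3-/- minus that in WT was -1.82 (adjusted p = 0.000445). Within WT tumor the higher library stood at 1.24 times the lower.

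The transcript of Rel, of 7466 bases, is the longest of the 10 and has the lowest GC content at 42.49%. With the length and GC trend removed, Rel stood 0.33 higher in tumor than in nontumor BEBi3-/- mice and 1.37 higher in tumor than in nontumor WT mice. BEBi3-/- minus WT in tumor mice was then -0.93, the interaction was -1.04, and all 4 values were still called. The BEBi3-/- tumor effect on Rel was not called with the tumor pair averaged (adjusted p = 0.141), without BEBi3-/- tumor replicate 1 (log2 difference 0.57) or replicate 2 (0.52), or without BEBi3-/- nontumor replicate 2 (0.41). For Rel the WT tumor effect, the interaction and the genotype effect in tumor mice were called in every alternative run.

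Nfkb1 encodes the precursor whose processed form pairs with Rela or Rel. It had 5515 and 5626 normalized counts in BEBi3-/- tumor, 5111 and 4915 in BEBi3-/- nontumor, 6652 and 6838 in WT tumor, and 4968 and 4421 in WT nontumor mice. The tumor groups lay above their nontumor groups without overlap. The WT difference was called at 1.44-fold (log2 0.52 ± 0.0752, adjusted p = 0.000194), while the BEBi3-/- difference was 0.15 with a 95% interval of -0.019 to 0.32 (adjusted p = 0.142). BEBi3-/- minus WT was -0.28 in tumor mice (adjusted p = 0.0119), and the interaction was -0.37 (adjusted p = 0.0173). Neither was called with the BEBi3-/- tumor pair averaged (adjusted p = 0.0756 and 0.0712), with the length and GC trend removed (-0.16 and -0.23), or without WT tumor replicate 2 (-0.26 and -0.35). The same held without BEBi3-/- tumor replicate 1 (-0.26 and -0.36) and without BEBi3-/- tumor replicate 2 (-0.29 and -0.39).

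Rela and Relb are the activating subunits of the classical and the alternative arm. Rela had 3035 and 3092 normalized counts in BEBi3-/- tumor, 3279 and 3214 in BEBi3-/- nontumor, 2651 and 2533 in WT tumor, and 3059 and 3280 in WT nontumor mice. Relb had 1621 and 1758 in BEBi3-/- tumor, 1614 and 1598 in BEBi3-/- nontumor, 1375 and 1290 in WT tumor, and 1581 and 1768 in WT nontumor mice. For both genes the WT tumor libraries were the lowest of the 8. The WT tumor effect was -0.29 for Rela (adjusted p = 0.00387) and -0.33 for Relb (adjusted p = 0.00591). When libraries were scaled to total reads it was 0.16 and 0.12, and Rela was then called higher. With the length and GC trend removed it was -0.05 and 0.18, and Relb was then called higher. Scaled to total reads, both genes still lay below the median of all genes at 0.46. In BEBi3-/- mice the tumor effect was -0.08 for Rela (95% interval -0.24 to 0.073) and 0.07 for Relb (-0.12 to 0.26), and neither was called.

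In tumor mice BEBi3-/- minus WT was 0.24 for Rela (adjusted p = 0.0145) and 0.34 for Relb (adjusted p = 0.00736). With the length and GC trend removed these differences were -0.01 and -0.08, and scaled to total reads they were 0.05 and 0.15, called in neither case. Without WT tumor replicate 2 they were 0.21 and 0.30, and without BEBi3-/- tumor replicate 2 they were 0.23 and 0.28, again not called. Rela was not called without BEBi3-/- tumor replicate 1 either (0.25). The interaction, the tumor effect in BEBi3-/- minus that in WT, was called for Relb (0.40 ± 0.119, adjusted p = 0.0206) and not for Rela (0.21, 95% interval -0.015 to 0.43), and for Relb it was -0.01 with the trend removed. The Relb interaction was not called without WT tumor replicate 2 (0.35), BEBi3-/- tumor replicate 2 (0.34) or WT nontumor replicate 2 (0.32).

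Nfkb2, which encodes the precursor of the alternative arm, had 3970 and 3993 normalized counts in BEBi3-/- tumor, 4589 and 4377 in BEBi3-/- nontumor, 4539 and 4444 in WT tumor, and 4446 and 4224 in WT nontumor mice. The BEBi3-/- tumor pair was the lowest of the 4 groups, and the other groups overlapped. The difference of BEBi3-/- tumor from BEBi3-/- nontumor was -0.17 (95% interval -0.32 to -0.021, adjusted p = 0.0745), and that of WT tumor from WT nontumor was 0.05 (-0.098 to 0.20, adjusted p = 0.487). Under the alternatives the WT tumor effect ran from -0.03 to 0.50 and was called in 1 of 25. The interaction was -0.22 (adjusted p = 0.0728), ran from -0.50 to -0.13 and was called in 4 of 22 alternatives. BEBi3-/- minus WT in tumor mice was -0.17 (adjusted p = 0.0467), and -0.36 to -0.05 under the alternatives. That call was lost in 11 of 23 alternatives, among them edgeR (adjusted p = 0.0676), DESeq2 (adjusted p = 0.0887) and the fits without any 1 of the 4 tumor libraries (differences of -0.16 to -0.19).

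**Figure D2:**
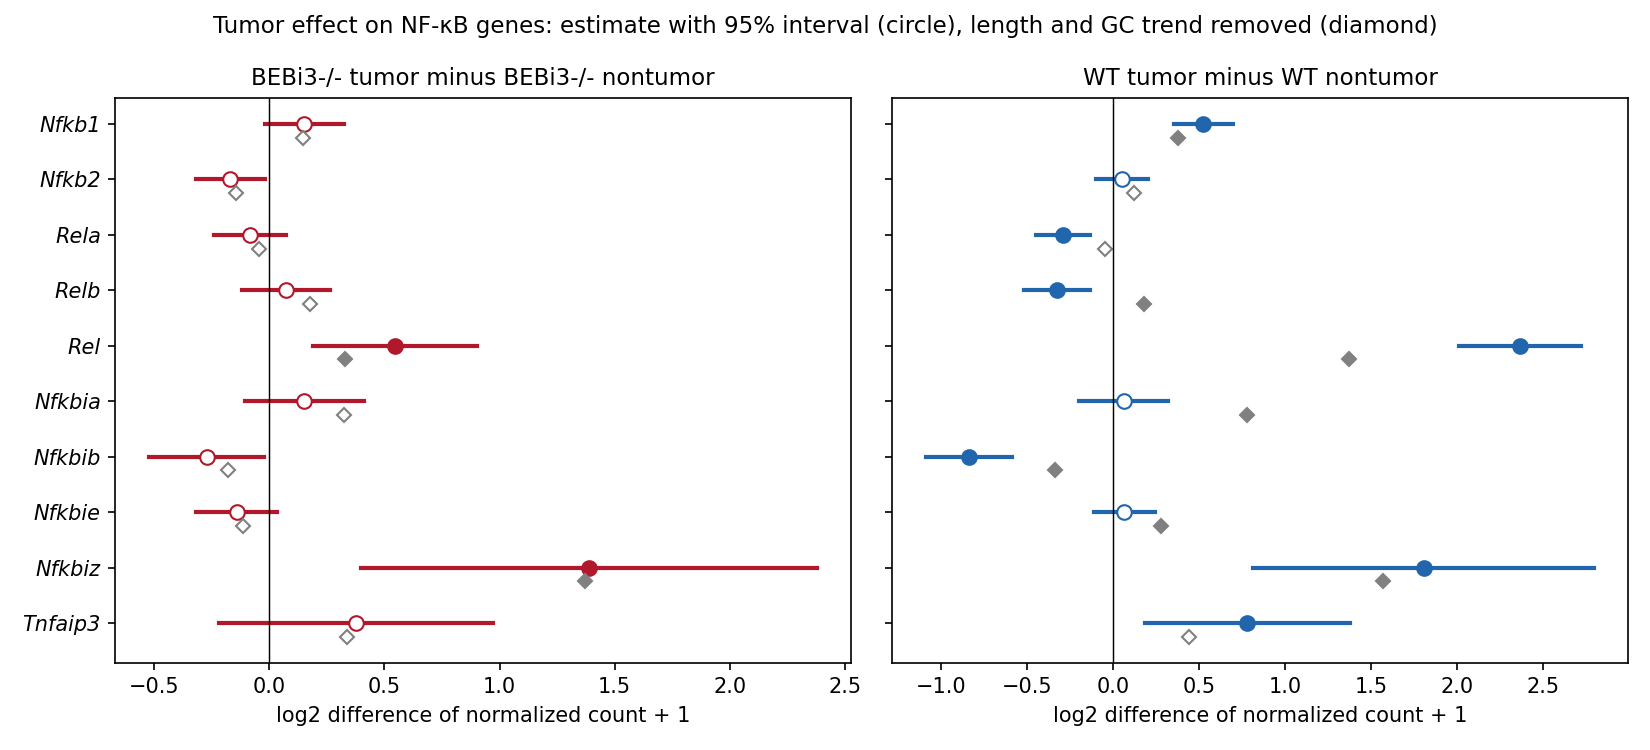
Log2 difference of normalized count plus 1 between tumor and nontumor mice (horizontal axis) for the 10 NF-κB genes, in BEBi3-/- at the left and WT at the right, on axes of different range, with circles for the estimate, lines for its 95% interval, diamonds for the estimate with the length and GC trend removed, and filled symbols for calls. Rel is at 0.55 in BEBi3-/- and 2.37 in WT, and Nfkbiz at 1.39 and 1.81 with the widest intervals.

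Transcript levels per kilobase allow the subunits to be compared with each other. Normalized counts were divided by the length of the longest protein-coding transcript, and each subunit was set against the sum of the 5. Rel made up 2.94 ± 0.0138% of the subunit transcripts in BEBi3-/- tumor, 2.02 ± 0.214% in BEBi3-/- nontumor, 8.54 ± 1.26% in WT tumor and 1.85 ± 0.357% in WT nontumor mice (SD, n = 2 each). The share of Rela was 25.68 and 25.46% in the BEBi3-/- tumor libraries, 27.01 and 27.4% in BEBi3-/- nontumor, 20.52 and 19.49% in WT tumor and 26.22 and 28.43% in WT nontumor. The share of Nfkb1 was higher in both tumor groups than in their nontumor groups, at 30.7 ± 0.157% in BEBi3-/- tumor and 34.3 ± 0.537% in WT tumor, against 27.7 ± 0.0953% in BEBi3-/- nontumor and 26.7 ± 1.99% in WT nontumor. The ratio of Rel to Rela per kilobase was 0.114 and 0.116 in the BEBi3-/- tumor libraries, 0.0805 and 0.0683 in BEBi3-/- nontumor, 0.373 and 0.484 in WT tumor, and 0.0803 and 0.0563 in WT nontumor. These shares and ratios do not depend on the scaling between libraries, but they were taken with the length and GC trend left in. The WT tumor effect on Rel was 2.37 with that trend left in and 1.37 with it removed. Rel was the least abundant subunit per kilobase in every library, WT tumor included. The shares are given without a test.

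**Figure D3:**
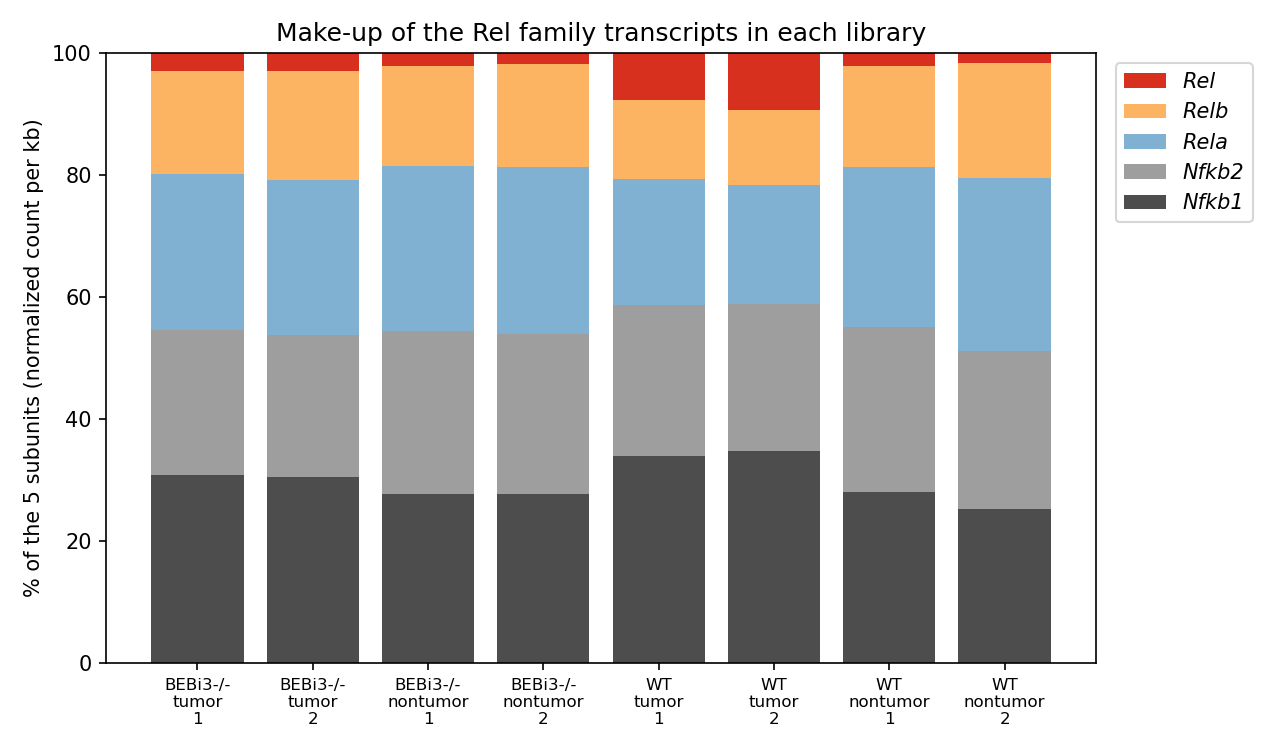
Share of each of the 5 Rel family subunits in their summed normalized counts per kilobase (vertical axis, %), with 1 stacked bar per library in the order BEBi3-/- tumor, BEBi3-/- nontumor, WT tumor and WT nontumor. The Rel segment reaches 7.65% and 9.43% in the WT tumor libraries and 1.60% to 2.95% in the others, with the length and GC trend left in.

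Among the classical inhibitors Nfkbib was lower in WT tumor, while Nfkbia and Nfkbie were called in no comparison. Nfkbia encodes IκBα, the fast feedback inhibitor, and had the highest level per kilobase of the 10 genes in every group. It had 3840 and 3854 normalized counts in BEBi3-/- tumor, 3920 and 3060 in BEBi3-/- nontumor, 3967 and 3581 in WT tumor, and 3742 and 3486 in WT nontumor mice, with the compared groups overlapping. Its tumor effect was 0.15 in BEBi3-/- (95% interval -0.11 to 0.41) and 0.06 in WT (-0.20 to 0.32). Its transcript of 1578 bases is the shortest of the 10, and with the length and GC trend removed its WT tumor effect was 0.78 (adjusted p = 0.000624) and BEBi3-/- minus WT in tumor mice was -0.42 (adjusted p = 0.0272). Scaled to total reads its WT tumor effect was 0.51 (adjusted p = 0.00552). Without BEBi3-/- nontumor replicate 1, its BEBi3-/- tumor effect was 0.33 (adjusted p = 0.0276).

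Nfkbie encodes IκBε, an inhibitor with a marked role in B cells. It had 2129 and 2154 normalized counts in BEBi3-/- tumor, 2445 and 2281 in BEBi3-/- nontumor, 2405 and 2241 in WT tumor, and 2126 and 2311 in WT nontumor mice. The BEBi3-/- tumor pair lay below the BEBi3-/- nontumor pair, and the WT groups overlapped. Its tumor effect was -0.14 in BEBi3-/- (95% interval -0.32 to 0.035) and 0.07 in WT (-0.11 to 0.24). With the length and GC trend removed its WT tumor effect was 0.28 (adjusted p = 0.00164) and BEBi3-/- minus WT in tumor mice was -0.31 (adjusted p = 0.00249). Under all alternatives its WT tumor effect ran from -0.02 to 0.52 and was called in 2 of 25. The interaction for Nfkbie was -0.21 (95% interval -0.46 to 0.042) and was called in 2 of 22 alternatives.

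Nfkbib encodes IκBβ and had 740 and 769 normalized counts in BEBi3-/- tumor, 865 and 961 in BEBi3-/- nontumor, 516 and 437 in WT tumor, and 804 and 897 in WT nontumor mice. The WT tumor pair was the lowest, the BEBi3-/- tumor pair came next, and the nontumor groups overlapped. Tumor minus nontumor in WT mice was -0.84 ± 0.110 on the log2 scale (adjusted p = 0.000114), and it was still called when scaled to total reads (-0.39) and with the trend removed (-0.34). In BEBi3-/- mice the tumor effect was -0.27 (95% interval -0.52 to -0.022, adjusted p = 0.0845). BEBi3-/- lay 1.59-fold above WT in tumor mice (log2 0.67 ± 0.110, adjusted p = 0.000958), a call kept in all 23 alternatives. The interaction of 0.56 (adjusted p = 0.0151) was not called with the trend removed (0.16), scaled to total reads (0.29), with the BEBi3-/- tumor pair averaged (adjusted p = 0.0541), or without WT tumor replicate 2 (0.44) or BEBi3-/- tumor replicate 2 (0.54). Per kilobase the ratio of Nfkbia to Nfkbib was 6.66 ± 0.163 in BEBi3-/- tumor, 5.04 ± 1.25 in BEBi3-/- nontumor, 10.4 ± 0.478 in WT tumor and 5.58 ± 0.711 in WT nontumor (SD, n = 2 each).

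Nfkbiz encodes IκBζ, a nuclear protein that binds NF-κB dimers on chromatin. It had 1312 and 1269 normalized counts in BEBi3-/- tumor, 755 and 321 in BEBi3-/- nontumor, 1133 and 1284 in WT tumor, and 535 and 221 in WT nontumor mice. All 4 tumor libraries lay above all 4 nontumor libraries, and the genotypes overlapped within tumor and within nontumor mice. The tumor effect was 2.62-fold in BEBi3-/- (log2 1.39 ± 0.435, adjusted p = 0.0403) and 3.50-fold in WT (1.81 ± 0.435, adjusted p = 0.00422). The difference between these effects was -0.42 with a 95% interval of -1.82 to 0.98, which does not show that the genotypes responded alike. The WT call was kept in every alternative, with differences from 1.17 to 2.44. The BEBi3-/- call was lost with the tumor pair averaged (adjusted p = 0.156), with DESeq2 (adjusted p = 0.0901), without BEBi3-/- tumor replicate 1 (1.37) or replicate 2 (1.41), and without BEBi3-/- nontumor replicate 2 (0.77). It was also lost without WT tumor replicate 1 or 2, where the difference stayed at 1.39 and the adjusted p was 0.062 and 0.0616.

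Tnfaip3 encodes A20, which removes activating ubiquitin chains from the NF-κB pathway. It had 2251 and 2238 normalized counts in BEBi3-/- tumor, 2253 and 1328 in BEBi3-/- nontumor, 2603 and 2886 in WT tumor, and 2042 and 1246 in WT nontumor mice. The WT tumor pair lay above all other libraries, and the BEBi3-/- tumor pair lay within the range of BEBi3-/- nontumor. The tumor effect was 0.38 in BEBi3-/- (95% interval -0.22 to 0.97) and 0.78 ± 0.261 in WT (1.72-fold, adjusted p = 0.0213). The WT call was lost with DESeq2 (adjusted p = 0.0535), with the length and GC trend removed (0.44), without WT nontumor replicate 2 (0.42), and without WT tumor replicate 1 (0.86) or replicate 2 (0.71). In BEBi3-/- the effect was -0.01 without nontumor replicate 2 and 0.76 without nontumor replicate 1 (adjusted p = 0.0497 in the last case).

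Nfkbiz and Tnfaip3 also differed most among the 10 genes inside the nontumor groups. The first library stood above the second by 1.23 (log2) for Nfkbiz and 0.76 for Tnfaip3 in BEBi3-/- nontumor, and by 1.27 and 0.71 in WT nontumor. Among all tested genes ranked by the size of this difference, Nfkbiz stood at percentile 97.0 and Tnfaip3 at 92.4 in BEBi3-/- nontumor, and at 97.6 and 91.7 in WT nontumor. Inside the tumor groups the same differences were 0.05 and 0.01 in BEBi3-/- and -0.18 and -0.15 in WT. Most immediate early genes, a list of 14 that stimulated cells switch on within minutes, were also higher in the first nontumor libraries. All 14 were higher in the first BEBi3-/- nontumor library and 12 of 14 in the first WT nontumor library, with medians of 0.57 and 0.24, against 4 of 14 in BEBi3-/- tumor and 9 of 14 in WT tumor. The share of all tested genes that were higher in the first library was not counted. Over all tested genes the size of the difference, in either direction, had a median of 0.167 in BEBi3-/- nontumor and 0.186 in WT nontumor. Fosb, a Fos family transcription factor gene picked after its values were seen, had 7310 and 3028 normalized counts in BEBi3-/- nontumor and 6142 and 2679 in WT nontumor. Nr4a1, an orphan nuclear receptor gene induced by antigen receptor signals, had 3563 and 1695 in BEBi3-/- nontumor and 2234 and 1258 in WT nontumor. The part of this difference inside the nontumor groups in the tumor effects on Nfkbiz and Tnfaip3 was not tested beyond the values without each library given above.

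**Figure D4:**
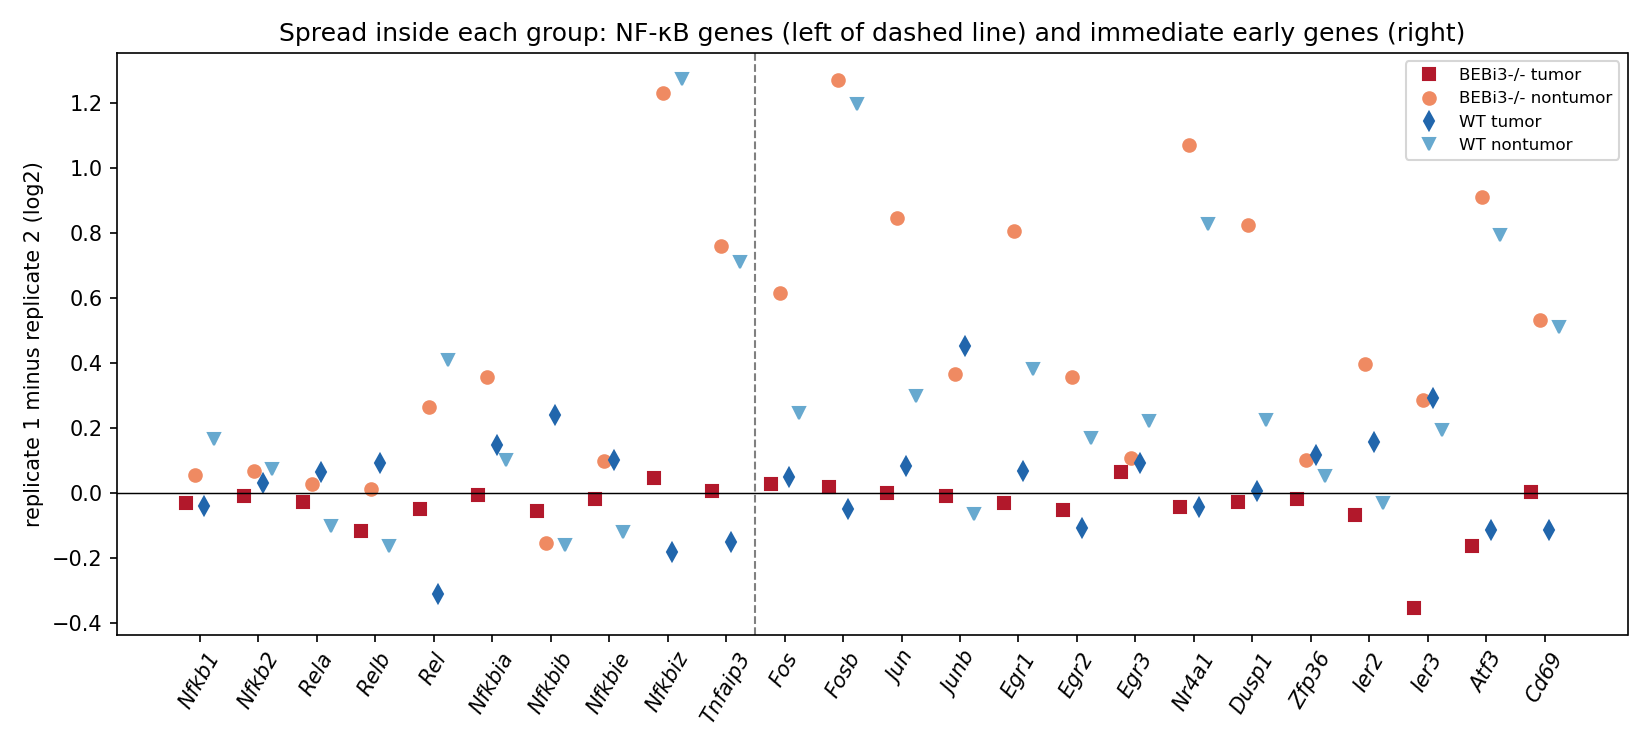
Log2 difference between replicate 1 and replicate 2 (vertical axis) inside each of the 4 groups, for the 10 NF-κB genes left of the dashed line and the 14 immediate early genes right of it. Nfkbiz stands at 1.23 in BEBi3-/- nontumor and 1.27 in WT nontumor, beside Fosb at 1.271 and 1.197, while both genes lie between -0.18 and 0.05 in the tumor groups.

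The other genes of the pathway were taken from lists by role. Their counts are to be read against all tested genes, of which 14.1% were higher and 18.5% lower in the BEBi3-/- tumor effect, 39.6% higher and 40.1% lower in the WT tumor effect, and 31.9% higher and 28.6% lower in BEBi3-/- against WT tumor mice. The median log2 difference of all tested genes was -0.0077 in the BEBi3-/- tumor effect and 0.00995 in the WT tumor effect. List counts under other scalings are to be read against all genes under the same scaling. Scaled to total reads, 3815 of 13011 genes were higher and 1358 lower in the BEBi3-/- tumor effect. In the WT tumor effect these were 7023 and 3525, and in BEBi3-/- against WT tumor mice 3111 and 5084. With the length and GC trend removed they were 1847 and 2449, 4811 and 4784, and 3254 and 2538 of 12867 genes. The BEBi3-/- tumor calls of these lists were lost, but for 1 gene, when a BEBi3-/- tumor library was left out or the pair averaged. With the BEBi3-/- tumor pair averaged, and without either BEBi3-/- tumor library, 0 genes of the IKK, alternative arm, ubiquitin, other IκB-type, receptor and target lists were called in that effect, and 1 immediate early gene was. Without BEBi3-/- nontumor replicate 2 the first 4 of these lists also had 0 calls, the receptors and the targets 1 higher and 0 lower each, and the immediate early genes 1 higher and 4 lower.

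Of the 3 genes of the IKK complex, 1 was higher and 0 lower in the BEBi3-/- tumor effect (median 0.20), and 3 were higher and 0 lower in the WT tumor effect (median 0.66). In BEBi3-/- against WT tumor mice 0 were higher and 3 lower. There Ikbkg of this list stood at -0.44, and at 0.21 with the length and GC trend removed. Ikbkb, which encodes the kinase IKKβ, had 3688 and 3544 normalized counts in BEBi3-/- tumor, 2660 and 2015 in BEBi3-/- nontumor, 4985 and 5664 in WT tumor, and 2361 and 1715 in WT nontumor. It was higher in tumor mice by 0.64 in BEBi3-/- (adjusted p = 0.0224) and by 1.40 in WT (adjusted p = 6.04e-05). The BEBi3-/- call was lost with the tumor pair averaged (adjusted p = 0.117). With the length and GC trend removed the IKK counts in WT were 2 higher and 1 lower, and scaled to total reads those in BEBi3-/- were 3 higher and 0 lower.

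Malt1, a protease of antigen receptor signalling, had 5210 and 5296 normalized counts in BEBi3-/- tumor, 4026 and 3439 in BEBi3-/- nontumor, 8051 and 8990 in WT tumor, and 3485 and 2770 in WT nontumor. Prkcb, a protein kinase gene that acts downstream of the antigen receptor, was 1.38 higher in tumor than in nontumor WT mice (adjusted p = 3.49e-06) and stood at -1.04 in BEBi3-/- minus WT tumor mice (adjusted p = 6.08e-05). Both values for Prkcb moved by little with the length and GC trend removed (1.37 and -1.02). For Traf6, a ubiquitin ligase gene, the WT tumor effect was 1.05, and 0.27 with that trend removed.

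Of the 8 genes of the alternative arm and its TRAF and cIAP regulators, 4 were higher and 0 lower in the BEBi3-/- tumor effect, and 6 were higher and 0 lower in the WT tumor effect (medians 0.21 and 0.40). In BEBi3-/- against WT tumor mice 0 of these genes were higher and 4 lower. Traf3, which holds this arm in check, had 1623 and 1652 normalized counts in BEBi3-/- tumor, 1324 and 969 in BEBi3-/- nontumor, 2689 and 2966 in WT tumor, and 1135 and 819 in WT nontumor, a WT tumor effect of 1.55 (adjusted p = 4.25e-05), and of 0.82 with the length and GC trend removed. Scaled to total reads the counts of this list were 6 higher and 0 lower in BEBi3-/- and 8 higher and 0 lower in WT. Of the 10 tested ubiquitin chain editors and A20 partners, 2 were higher and 0 lower in the BEBi3-/- tumor effect and 7 were higher and 2 lower in the WT tumor effect. Between the tumor groups 2 were higher and 5 lower in BEBi3-/- than in WT. Tnip2, which encodes an A20-binding protein, was 1.31 higher in tumor than in nontumor WT mice (adjusted p = 2.65e-05) and 0.43 higher in BEBi3-/- (adjusted p = 0.0398), where the call was lost in 10 of 23 alternatives. Scaled to total reads the counts of the ubiquitin list were 6 higher and 0 lower in BEBi3-/- and 8 higher and 0 lower in WT. With the length and GC trend removed, the WT tumor effect of Tnip2 was 1.72. Another gene of this list, Otud7b, had a WT tumor effect of 0.94 (adjusted p = 6.47e-06), and of -0.058 with that trend removed. Cyld, also of this list, stood at -0.51 in BEBi3-/- minus WT tumor mice, and at 0.24 with that trend removed. Of the 5 other IκB-type genes, 1 was higher and 1 lower in the BEBi3-/- tumor effect, and 1 was higher and 3 lower in the WT tumor effect. Between the tumor groups 4 were higher and 0 lower in BEBi3-/- than in WT. Nfkbid, which encodes a nuclear IκB protein, had 4488 and 4335 normalized counts in BEBi3-/- tumor and 3057 and 1533 in BEBi3-/- nontumor, a difference of 1.03 (adjusted p = 0.033). That call was lost in 11 of 23 alternatives, among them the averaged tumor pair (adjusted p = 0.14), DESeq2, and the fits without BEBi3-/- nontumor replicate 2 or any 1 of the 4 tumor libraries.

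Of the 12 receptor and adaptor genes, 1 was higher and 3 lower in the BEBi3-/- tumor effect, and 4 were higher and 6 lower in the WT tumor effect. Scaled to total reads the counts were 3 and 2 in BEBi3-/- and 6 and 3 in WT. Between the tumor groups, without that scaling, 6 were higher and 4 lower in BEBi3-/- than in WT. Ltbr, the lymphotoxin receptor of stromal and myeloid cells, had 181 and 168 normalized counts in BEBi3-/- tumor, 243 and 321 in BEBi3-/- nontumor, 27.0 and 26.0 in WT tumor, and 306 and 384 in WT nontumor. The macrophage marker Csf1r, picked after its values were seen, had 8365 and 8472, 14477 and 17476, 1894 and 1638, and 15379 and 15006 in the same groups. Of the 14 monocyte and macrophage markers, 0 were higher and 13 lower in the WT tumor effect, and 0 higher and 11 lower in the BEBi3-/- tumor effect. Their order differed, as Lyz2 had 4936 and 4861, 3342 and 5095, 1609 and 1350, and 4277 and 4483. Itgam had 176 and 159, 165 and 171, 221 and 230, and 193 and 181. The part of such cells in the Ltbr levels was not tested. Tlr9, a receptor for DNA in B cells, had 1168 and 1101 in BEBi3-/- tumor, 1128 and 1245 in BEBi3-/- nontumor, 3229 and 3105 in WT tumor, and 1136 and 886 in WT nontumor, and BEBi3-/- minus WT in tumor mice was -1.48 (adjusted p = 3.17e-05).

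The NF-κB target genes, of which 19 were tested, had counts as follows. In the BEBi3-/- tumor effect 6 were higher and 3 lower (median 0.10), in the WT tumor effect 2 were higher and 11 lower (median -0.90), and in BEBi3-/- against WT tumor mice 15 were higher and 1 lower (median 0.84). With the length and GC trend removed these counts were 7 and 2, 4 and 10, and 11 and 2, and with the BEBi3-/- tumor pair averaged they were 0 and 0, 2 and 11, and 11 and 1. Scaled to total reads they were 9 and 1, 6 and 11, and 13 and 1. Bcl2a1a, a survival gene of the Bcl2 family, had 301 and 342 normalized counts in BEBi3-/- tumor, 383 and 614 in BEBi3-/- nontumor, 59.6 and 62.1 in WT tumor, and 708 and 704 in WT nontumor. It has near-identical copies, so that its reads may be shared with them. Ccl4, a chemokine gene, had 172 and 210 in BEBi3-/- tumor, 103 and 86.6 in BEBi3-/- nontumor, 25.4 and 19.7 in WT tumor, and 104 and 91.9 in WT nontumor. The 2 targets called higher in the WT tumor effect were Cd274 at 1.06 (adjusted p = 6.72e-05) and Irf4 at 1.05 (adjusted p = 0.000536). In the BEBi3-/- tumor effect Cd274 stood at 0.31 (adjusted p = 0.0858) and Irf4 at 0.84 (adjusted p = 0.012), the latter call lost with the tumor pair averaged. Several genes of this list are also expressed by macrophages, and the macrophage markers summed to 0.0753% of reads in WT tumor against 0.357% in BEBi3-/- tumor and 0.637% in WT nontumor. Markers of granulocytes, T and NK cells, platelets, dendritic cells and plasma cells were lower in the WT tumor effect for 9 of 9, 11 of 12, 7 of 8, 7 of 8 and 4 of 6 genes. The part of all these cells in the target gene counts was not tested. Cd83, an activation marker of B cells and dendritic cells, was 0.45 higher in tumor than in nontumor BEBi3-/- mice (adjusted p = 0.0117), a call lost with the tumor pair averaged (adjusted p = 0.0917) and without either BEBi3-/- tumor library.

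The 14 immediate early genes had 3 higher and 1 lower in the BEBi3-/- tumor effect, 1 higher and 9 lower in the WT tumor effect, and 12 higher and 1 lower in BEBi3-/- against WT tumor mice. With the length and GC trend removed these counts were 3 and 0, 2 and 7, and 8 and 1, and with the BEBi3-/- tumor pair averaged they were 1 and 0, 1 and 9, and 9 and 1. Cd69, an early activation marker, had 7955 and 7941 normalized counts in BEBi3-/- tumor, 3764 and 2599 in BEBi3-/- nontumor, 3337 and 3612 in WT tumor, and 5112 and 3583 in WT nontumor. Zfp36, which encodes an RNA-binding protein that destabilises transcripts, had 20182 and 20429 in BEBi3-/- tumor, 22687 and 21150 in BEBi3-/- nontumor, 8977 and 8271 in WT tumor, and 20234 and 19511 in WT nontumor. The levels of Zfp36 in the WT tumor libraries lay below all others, where those of Rel lay above all others. Egr3 was the 1 gene of this list called higher in the WT tumor effect, and its WT tumor levels also lay above all others. It had 347 and 332 in BEBi3-/- tumor, 273 and 253 in BEBi3-/- nontumor, 611 and 573 in WT tumor, and 278 and 239 in WT nontumor.

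**Figure D5:**
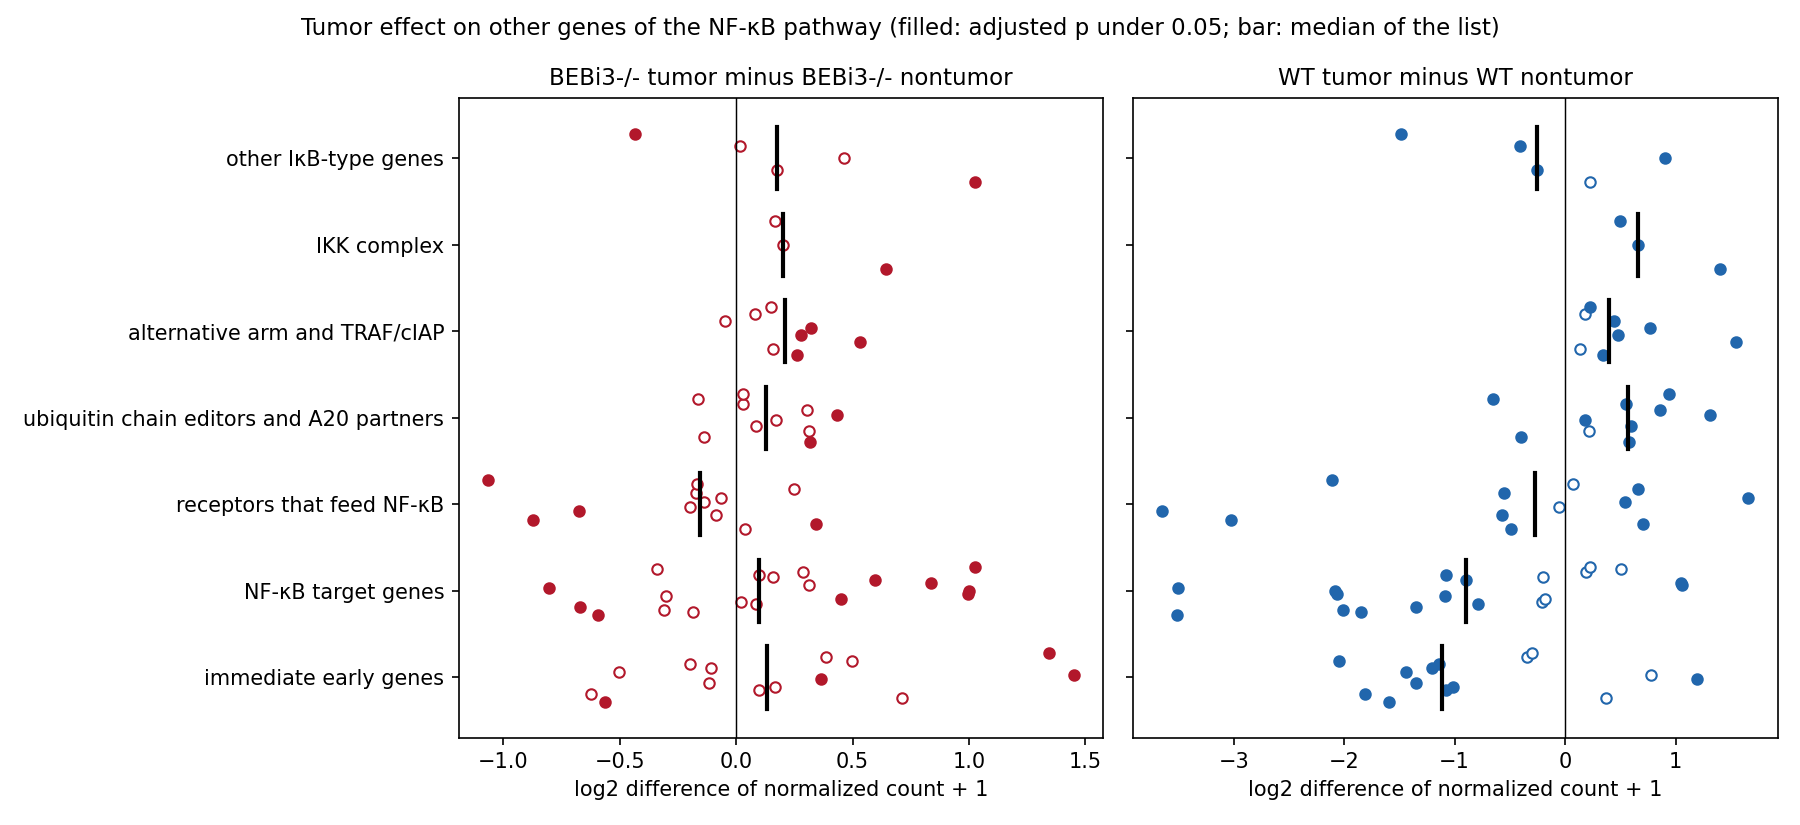
Log2 difference of normalized count plus 1 between tumor and nontumor mice (horizontal axis) for other genes of the NF-κB pathway by list (rows), in BEBi3-/- at the left and WT at the right, with filled points for calls and a bar at the median of each list. The panels have different ranges, and in WT the medians of the IKK, alternative arm and ubiquitin lists lie at 0.40 to 0.66 and that of the target genes at -0.90.

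The genes whose levels were most like those of Rel over the 8 libraries were Nup153, Ralgapa1 and Akap13, with a Pearson r of 0.999 each, and 1974 of the 11853 genes compared had an r over 0.95. The genes most like Nfkbiz were Per1 (0.997), Zfp692 (0.996) and Doc2g (0.993), with 215 genes over 0.95, and those most like Nfkbib were Asl (0.998), Tnfaip8l2 (0.997) and Dscr3 (0.997), with 1904. For Nfkbia and Nfkbie 0 genes reached that r. The 8 libraries share 4 groups, so that these values mostly reflect the group levels.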

How the data were processed

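The authors deposited 1 table of normalized counts per gene for 8 libraries, which per the submitters' processing notes were made with Salmon, DESeq2 and the mm10 build, whose versions the sources used here do not give. Each deposited value is a signal, a count divided by a size factor, and 100% of the values gave whole reads within a tolerance of 0.01 after division by the value of 1 read. Of 23302 entries 5065 were 0 in all libraries and 27 had names turned into dates.

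Genes with a mean of at least 10 were tested with limma 3.58.1 in R 4.3.3 on log2(normalized count + 1), in 1 model of 4 groups with a mean-variance trend, with Benjamini-Hochberg adjustment across the 13011 genes. Fold changes are on this scale and understate those of low genes. With 2 libraries a group a p-value reflects no more than how these libraries vary, which may be technical. edgeR 4.0.16 and DESeq2 1.42.0 were run on the recovered reads as alternatives, beside other pseudocounts, filters, scalings and spread models, libraries left out in turn, the averaged BEBi3-/- tumor pair and the removed trend on transcript length and GC content. Crossed title numbers and scaling to total reads were added after seeing the data.

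The members and lists were chosen with earlier results of these data known. Beside the members, the rule took from each pathway list the 2 genes with the smallest p in each comparison, of which examples are given (1 pathway list and the summed B cell markers are not reported here), and for each member the 3 genes of highest Pearson r. Lengths are those of the longest protein-coding GENCODE transcript, and promoters are from RefSeq.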

Additional observations from a re-analysis of the deposited data

Results flagged for a closer look

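The tumor effect differed between the genotypes for 4 of the 10 genes, by the interaction term of the limma model, where 27.5% of all genes were positive and 25.4% negative. The difference of the effect in BEBi3-/- mice from that in WT mice was -1.82 for Rel, -0.37 for Nfkb1, 0.56 for Nfkbib and 0.40 for Relb (log2). Of these, Rel was the 1 gene still called with the BEBi3-/- tumor pair averaged as 1 library, and also the 1 gene still called with the length and GC trend removed, where the Relb value was -0.0058. All 4 differences rest on the WT tumor libraries, which also differ in title prefix and in sex-linked genes.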

How the results depend on the processing

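Over the 10 genes and 5 comparisons, 1034 of 1160 values under an alternative kept their direction and side of the threshold. These include the genotype effect in nontumor mice, where 0 members were called under any alternative. Of the 1160 values 65 lost a call, 20 gained one and 34 changed sign without a call. Another 7 changed sign where the original value, the alternative or both were called. The 7 were, with the length and GC trend removed, 0.18 for Relb in the WT tumor effect, -0.0063 for Rela, -0.079 for Relb and -0.42 for Nfkbia in the genotype effect in tumor mice, and -0.0058 for the Relb interaction, and, scaled to total reads, 0.16 for Rela and 0.12 for Relb in the WT tumor effect. The 2 members called in the BEBi3-/- tumor effect became 0 without a filter, without a trend in the spread and with the tumor pair averaged, 1 with the robust fit and with DESeq2, 4 scaled to total reads, and 0 to 4 without 1 library. The 6 called in the genotype effect in tumor mice became 3 with the pair averaged and 2 to 6 without 1 library, the 4 interactions 1 and 1 to 5, the 7 of the WT tumor effect 6 to 7 without 1 library, and the nontumor count stayed 0. Over all genes the 4242 calls of the BEBi3-/- tumor effect became 2375 without the trend, 733 with the pair averaged, 788 and 756 without BEBi3-/- tumor replicate 1 and 2, and 1213 without BEBi3-/- nontumor replicate 2. Title numbers 7 and 8 occur in both WT groups, but same-numbered libraries deviated with r = -0.256 and share only a number. With the number as a replicate block 5 members were called in the WT tumor effect (Rela and Relb lost, adjusted p = 0.0952 and 0.0657) and 9305 genes, against 10378 without it, and with the numbers crossed 7 members and 10678 genes. The causes of these changes were not tested. With 2 libraries a group the 95% intervals of the members are wide where libraries differ, as for Nfkbiz and Tnfaip3.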
